A study of Mus musculus with 6 samples.

Results

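The proteasome genes of the mouse were followed in hematopoietic stem cells (HSCs), the bone marrow cells that renew all blood lineages. Members were the genes whose symbol starts with Psma, Psmb, Psmc, Psmd or Psme followed by a digit, without the rows named as pseudogenes. That rule gave 41 of the 19978 genes in the table. By role they were 8 alpha and 7 beta subunits of the core particle, 9 base and 8 lid subunits of the regulatory particle, 3 base assembly factors, 5 activator genes and Psmc3ip. Psmc3ip matches the pattern of names but encodes a meiotic recombination factor, not a subunit. The names are those of the table, and 4 further beta subunit genes were not analysed here.

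Each sample was 100 HSCs sorted from bone marrow, and its RNA was copied from the poly(A) tail and amplified by a low-input method (Smart-seq2). There were 3 libraries labelled Piezo1 cKO and 3 WT libraries. Piezo1 encodes a mechanically gated cation channel, and cKO stands for conditional knockout. The titles call the knockout libraries S. The labels give no Cre driver, deleted exon, strain, age or number of mice, and leave it unsaid whether libraries sharing a genotype came from separate animals. P-values therefore measure only the spread between these libraries, which may be technical.

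The proteasome is the protease complex that breaks down proteins tagged with ubiquitin. Its core particle is a stack of rings, with outer alpha rings that gate the channel and inner beta rings that carry the catalytic sites. The regulatory particle binds the ubiquitin chain, removes it and unfolds the protein, while other activators open the core without ubiquitin. Subunits are assembled in fixed proportions, and their genes are known to be induced together by the transcription factor NFE2L1 when proteasome activity falls short.

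Upstream sequences are shown for 4 members whose levels are followed below: Psma1, because it reached an FPKM (fragments per kilobase, scaled to library depth) of 10 in every library; Psmb5 and Psmb6, which encode catalytic subunits; and Psmc6, because its levels did not overlap between genotypes. RefSeq gave a start for 35 of the 41 members (GRCm38.p6), and 1 window of 250 bases before the start was searched per gene on both strands. The core of the antioxidant response element, TGACNNNGC, which NFE2L1 and its relative NFE2L2 can bind, was found in 5 of 35 member windows (14.3%) and in 10.1% of the windows of 27025 genes. Those 5 were Psmb5, Psmb6, Psmc6, Psmd9 and Psmd12. The CCAAT box, the NF-Y motif, was in 13 member windows (37.1%) and in 34.5% of all. An interferon response core, GAAA followed by any 2 bases and GAAA, was in 3 member windows (8.6%) and in 3% of all, and the GC box, GGGCGG, in 20 (57.1%) and in 32.9%. A match is a string of letters and not a measured site. Below, capitals mark CCAAT boxes in Psma1 and the TGACNNNGC core in the others, on either strand. The windows are chr7:114276117-114276366 on the minus strand for Psma1, chr14:54617996-54618245 on the minus strand for Psmb5, chr11:70525107-70525356 on the plus strand for Psmb6, and the first 200 bases, chr14:45329574-45329773 on the plus strand, for Psmc6.
Psma1: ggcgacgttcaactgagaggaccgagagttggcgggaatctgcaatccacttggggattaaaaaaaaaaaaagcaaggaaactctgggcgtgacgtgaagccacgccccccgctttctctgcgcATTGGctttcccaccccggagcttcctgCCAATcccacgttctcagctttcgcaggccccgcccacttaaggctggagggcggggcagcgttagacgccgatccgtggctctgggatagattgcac
Psmb5: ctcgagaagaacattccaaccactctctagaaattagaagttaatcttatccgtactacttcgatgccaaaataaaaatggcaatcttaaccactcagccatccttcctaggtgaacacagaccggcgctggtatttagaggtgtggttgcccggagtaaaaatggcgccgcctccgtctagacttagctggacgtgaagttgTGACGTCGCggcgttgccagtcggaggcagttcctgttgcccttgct
Psmb6: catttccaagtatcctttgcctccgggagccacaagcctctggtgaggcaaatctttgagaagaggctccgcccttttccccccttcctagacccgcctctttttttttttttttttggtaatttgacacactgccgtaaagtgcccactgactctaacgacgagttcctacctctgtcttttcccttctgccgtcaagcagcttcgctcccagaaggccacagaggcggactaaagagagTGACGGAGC
Psmc6: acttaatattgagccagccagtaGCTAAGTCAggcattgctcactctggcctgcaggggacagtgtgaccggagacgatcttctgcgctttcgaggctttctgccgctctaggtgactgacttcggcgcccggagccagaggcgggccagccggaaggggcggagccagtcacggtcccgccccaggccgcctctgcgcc

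The libraries differed in depth and content. Total counts were 31252820 to 72116120 in the labelled cKO and 3907259 to 64794532 in WT, lowest in WT 3 and next lowest in WT 1. Piezo1 had an FPKM of 0.175, 8.81 and 0.819 in labelled cKO 1, 2 and 3, against 0.539, 3.97 and 1.57 in WT 1, 2 and 3. Its highest level lay in a library labelled cKO, so each direction below rests on the labels alone. Of the 13 HSC markers, Mecom and Tal1 stayed under an FPKM of 1 in all 6 libraries, and Kit exceeded it in labelled cKO 3 and WT 2 alone; Slamf1 was listed at 0 in labelled cKO 1. Markers of other cells were present. All 10 granulocyte and monocyte markers were in the table, with a summed FPKM of 858 to 37179 in the labelled cKO and 712 to 29455 in WT, and Ctsg was at 0 in WT 2 and WT 3. The 8 erythroid markers summed to 1680.2 to 2816 in the labelled cKO, against 9908 to 21923 in WT, with Klf1 at 0 in 3 libraries. The 8 lymphoid markers summed to 2.04 to 7.64 in the labelled cKO, against 19.5 to 88.2 in WT, with Cd3d or Cd3e at 0 in 4 libraries. The 6 stromal and endothelial markers summed to 0.608 to 2.1 in the labelled cKO, against 0.668 to 8.79 in WT, with Lepr at 0 in 3. The part of these cells in the results below was not tested. In bulk samples, fewer cells of a type and less RNA per cell cannot be told apart.

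The proteasome genes made up a small and uneven share of each library. They took 0.660%, 1.19% and 1.02% of all counts in labelled cKO 1, 2 and 3, against 0.734%, 1.45% and 0.213% in WT 1, 2 and 3. The lowest share was in WT 3 and the highest in WT 2, and the genotypes overlapped. The member with the most counts was Psme1 in labelled cKO 1, Psmb6 in labelled cKO 2 and 3, Psmb2 in WT 1, Psmb6 in WT 2 and Psma1 in WT 3. A single gene held 40.6% of the members' counts in WT 1 and 58.4% in WT 3, while the leading gene held 10.2% to 17.6% in the other libraries. Median FPKM over the members was 3.18, 58.4 and 27.6 in labelled cKO 1, 2 and 3, against 1.59, 92.6 and 4.32 in WT. Labelled cKO 2, labelled cKO 3 and WT 2 thus stood above the other 3 libraries, which came from both genotypes. They were also the deepest, with total counts of 72116120, 69972499 and 64794532, against at most 31252820 in the rest. The part of depth in this pattern was not tested.

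**Figure D1:**
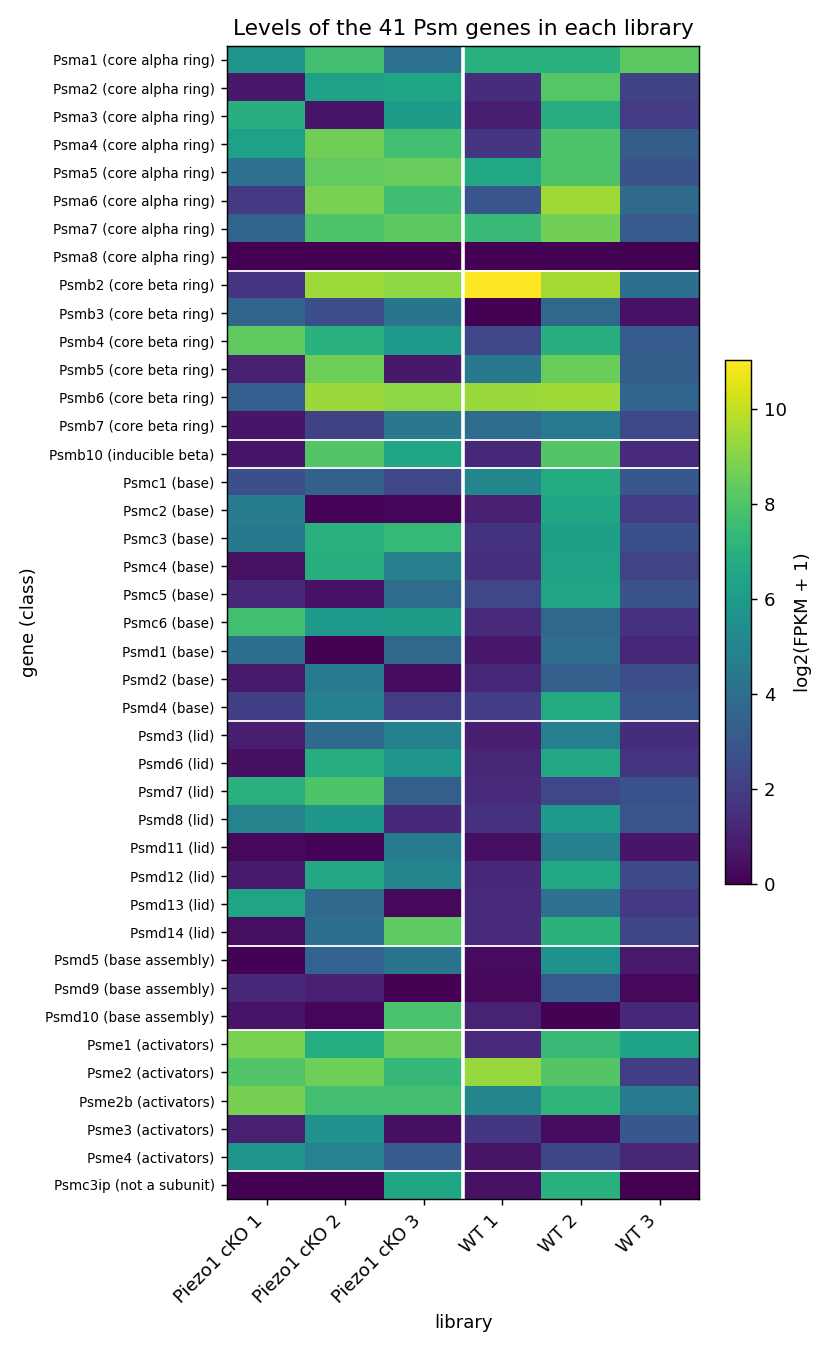
Heat map of log2(FPKM + 1) for the 41 members (rows, grouped by role) in the 3 libraries labelled Piezo1 cKO (left) and the 3 WT libraries (right). Most members are bright in some libraries and dark in others, and labelled cKO 2, labelled cKO 3 and WT 2 hold the most bright cells.

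The number of members at a given level differed widely between libraries. An FPKM of at least 10 was reached by 18, 29 and 29 of the 41 members in labelled cKO 1, 2 and 3, and by 10, 34 and 6 in WT 1, 2 and 3. Over all 19978 genes that level was reached by 8.9%, 14.5% and 15.1% in the labelled cKO and by 5%, 16.5% and 4.3% in WT. Psma1 and Psme2b were the 2 members at or above it in all 6 libraries, 6 members reached it in 5, and 15 reached it in 3. The commonest pattern, shared by 8 members (Psma2, Psmb10, Psmc4, Psmd3, Psmd5, Psmd6, Psmd12 and Psmd14), was a level of at least 10 in labelled cKO 2, labelled cKO 3 and WT 2 and a lower one in the rest. Psma8, the alpha subunit of the testis, had 8 counts in WT 2 and 0 in every other library, and Psmd9 never reached 10. At an FPKM of at least 1 the counts of members were 25, 33 and 34 in labelled cKO 1, 2 and 3, against 31, 38 and 35 in WT. That cutoff turned the order: WT 3 came second of the 6 libraries at 1 and last at 10. In WT 1 and WT 3 most members lay between these levels.

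In the alpha rings, which form the gate of the core, Psma1 (ENSMUSG00000030751, chromosome 7, 114264606 to 114276118 on the minus strand) had an FPKM of 52.1, 213 and 17 in labelled cKO 1, 2 and 3, against 125, 132 and 300.2 in WT 1, 2 and 3. It had the highest level of the alpha subunit genes in WT 3, where it had 4851 counts, and the genotypes overlapped. Psma4 had 77.5, 393 and 203 in the labelled cKO, against 2.33, 247 and 8.38 in WT. Psma5 had 16.4, 332 and 354, against 94.9, 245 and 6.09 in WT. Both were low in WT 3, and the genotypes overlapped. Psma6 had 2.63, 442 and 201 in the labelled cKO, against 6.68, 699.8 and 13.2 in WT. Psma7 had 10.8, 252 and 305, against 174, 408 and 7.95 in WT. Psma3 departed from the others in labelled cKO 2, with 121, 0.520 and 67.8 against 0.898, 115 and 2.77 in WT. Psma2 had 0.662, 78.9 and 87.9 in the labelled cKO, against 1.73, 273 and 3.53 in WT, and it shares 8943 bases of its deposited span with AW209491 on the same strand.

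The beta rings carry the proteolytic sites. Psmb5, the chymotrypsin-like subunit and the target of proteasome inhibitors such as bortezomib, had an FPKM of 0.972, 381 and 0.675 in labelled cKO 1, 2 and 3, against 20.1, 361 and 8.63 in WT 1, 2 and 3. It passed 10 in labelled cKO 2, WT 1 and WT 2, and the genotypes overlapped. Psmb6, the caspase-like subunit, had 8.77, 665 and 566 in the labelled cKO, against 652, 706 and 10.9 in WT, lowest in labelled cKO 1 and WT 3. Psmb7, the trypsin-like subunit, was lower, with 0.611, 3.44 and 20.1 in labelled cKO 1, 2 and 3, against 14.0, 22.3 and 4.32 in WT. Psmb10 encodes the subunit that takes the place of the Psmb7 product in the immunoproteasome, the form induced by interferon gamma. It had 0.540, 268 and 89.9 in the labelled cKO, against 1.34, 267 and 1.52 in WT. The ratio of Psmb10 to Psmb7 FPKM was 0.884, 78.1 and 4.48 in the labelled cKO, against 0.0959, 12 and 0.351 in WT. Psmb10 exceeded Psmb7 in labelled cKO 2, labelled cKO 3 and WT 2 and was below it in the other 3 libraries, so the genotypes overlapped. Psmb10 lies within an antisense gene, Gm16156, and Psmb7 overlaps Nek6 on the other strand, so reads of these genes may not be told apart.

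The other beta subunits have structural roles. Psmb2 had the highest level of any member, with 2074 in WT 1; its FPKM was 2.24, 679 and 567 in labelled cKO 1, 2 and 3, against 2074, 749 and 15.8 in WT 1, 2 and 3. Psmb4 had 318, 129 and 61.3 in the labelled cKO, against 4.06, 123 and 8.10 in WT, and was the beta subunit gene with the smallest p. Psmb3 had 11, 5.22 and 18.5 in the labelled cKO, against 0, 12.3 and 0.474 in WT, and so passed 10 in labelled cKO 1, labelled cKO 3 and WT 2. Genotypes overlapped for each beta subunit gene.

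**Figure D2:**
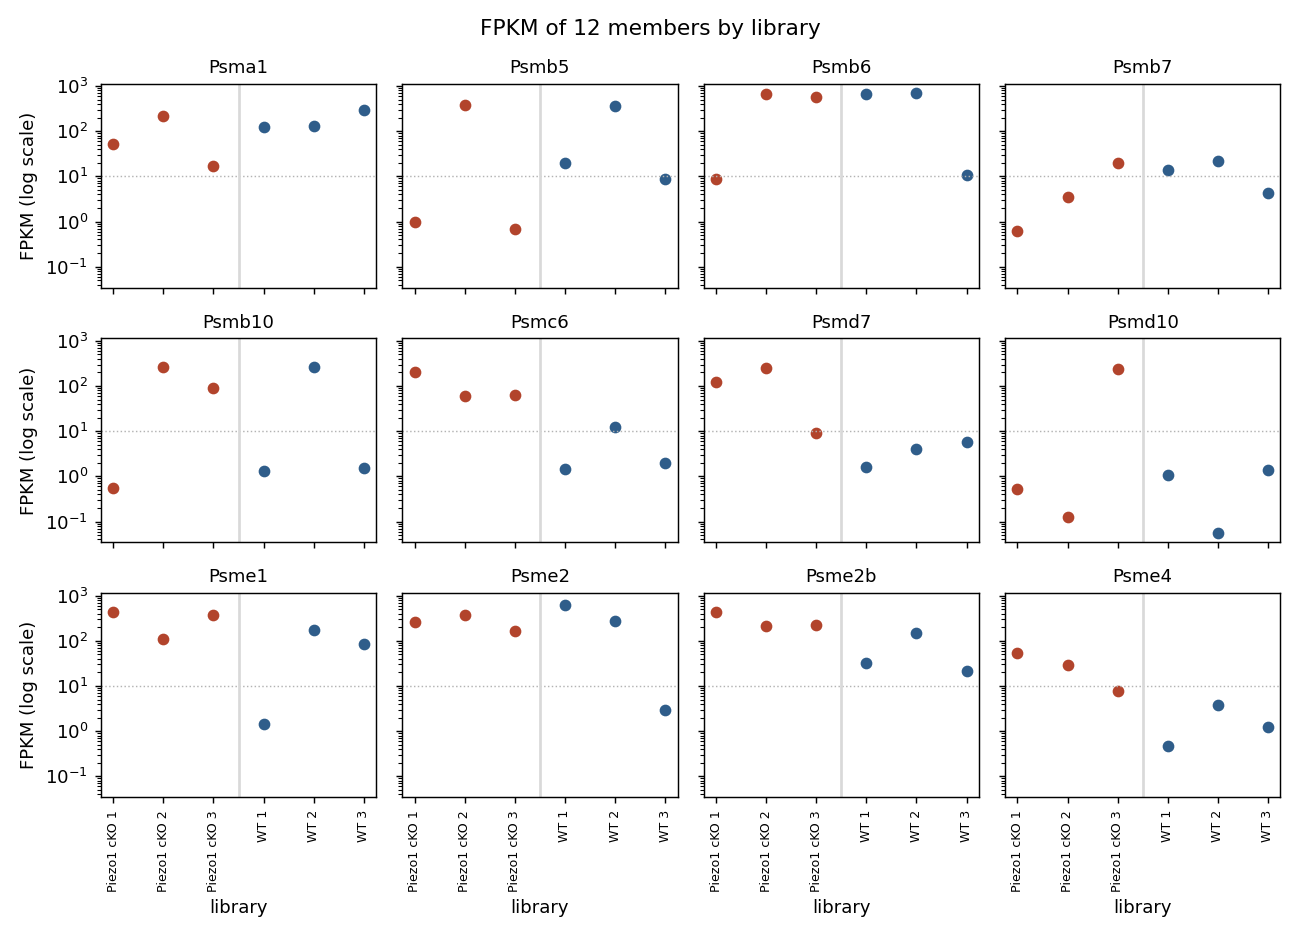
FPKM on a log scale for 12 members in the 3 libraries labelled Piezo1 cKO (red, left) and the 3 WT libraries (blue, right); the dotted line is an FPKM of 10. Psmc6, Psmd7, Psme2b and Psme4 are the members whose 2 groups of points do not overlap, and Psmd10 is high in labelled cKO 3 alone.

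The base of the regulatory particle holds a ring of ATPases (Psmc1 to Psmc6) that unfold the substrate. Psmc6 (ENSMUSG00000021832, chromosome 14, 45329788 to 45349705 on the plus strand) had an FPKM of 207, 61.2 and 64.6 in labelled cKO 1, 2 and 3, against 1.45, 12.2 and 1.98 in WT 1, 2 and 3. Each labelled cKO value lay above each WT value, and the means were 111 ± 83.4 in the labelled cKO and 5.21 ± 6.06 in WT (SD, n = 3 each). Psmc1 leaned the other way, with 5.37, 9.29 and 4.05 in the labelled cKO, against 32.4, 108 and 6.92 in WT, and the groups overlapped through WT 3. Psmc5 had 1.32, 0.445 and 13.7, against 4.05, 85.7 and 6.10 in WT. Psmc3 had 20.7, 126 and 165 in the labelled cKO, against 2.06, 74.5 and 5.53 in WT, and Psmc4 0.418, 124 and 26.8, against 1.80, 79.7 and 3.77. Psmc2 had 4466, 37 and 46 counts in labelled cKO 1, 2 and 3, against 111, 31856 and 78 in WT 1, 2 and 3, so it reached an FPKM of 10 in 1 library of each genotype. These ATPases are known to join in a single ring, yet their FPKM within labelled cKO 2 spanned 0.0918 for Psmc2 to 126 for Psmc3. Of the base subunits that are not ATPases, Psmd1 and Psmd2 are scaffolds and Psmd4 is a ubiquitin receptor. Psmd4 had 3.18, 27.8 and 2.86 in the labelled cKO, against 3.02, 105 and 6.65 in WT. Psmd1 ranged from 0.0507 to 16 over the 6 libraries and Psmd2 from 0.279 to 22.8.

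The lid removes ubiquitin from the substrate. Its metalloprotease Psmd14 had an FPKM of 0.327, 15.9 and 312 in labelled cKO 1, 2 and 3, against 1.53, 135 and 3.93 in WT 1, 2 and 3. Psmd7 (ENSMUSG00000039067, chromosome 8, 107580381 to 107588464 on the minus strand), which pairs with Psmd14 in the lid, had 125, 249 and 9.15 in the labelled cKO, against 1.59, 4.10 and 5.88 in WT. Psmd7 averaged 128 ± 119.9 in the labelled cKO and 3.86 ± 2.15 in WT (SD, n = 3 each). Its genotypes did not overlap, although labelled cKO 3 and WT 3 differed by less than 2-fold. Among the labelled cKO libraries, Psmd7 was lowest and Psmd14 highest in labelled cKO 3, while both were higher in labelled cKO 2 than in labelled cKO 1. Psmd13 had 84.5, 12.5 and 0.183 in the labelled cKO, against 1.55, 16.3 and 2.70 in WT, and Psmd6 had 0.363, 115 and 53.9, against 1.25, 98.8 and 2.25. Psmd3, Psmd8, Psmd11 and Psmd12, also structural lid subunits, had their highest levels in labelled cKO 2, labelled cKO 3 or WT 2, at 27.6, 58.9, 28.0 and 98.7. Psmd13 overlaps Sirt3 on the other strand and a processed pseudogene on its own.

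Psmd5, Psmd9 and Psmd10 encode chaperones that help build the base and leave the finished particle. Psmd10, also known as gankyrin, had an FPKM of 0.519, 0.127 and 238 in labelled cKO 1, 2 and 3, against 1.07, 0.0554 and 1.41 in WT 1, 2 and 3. Its whole difference rests on 27202 counts in labelled cKO 3, and the other 5 libraries had 6 to 35. Psmd5 had 0.0421, 10.1 and 17.7 in the labelled cKO, against 0.255, 49.7 and 0.753 in WT. Psmd9 had 1.42, 1.04 and 0.0267, against 0.166, 7.77 and 0.175 in WT, and Hpd overlaps it on the other strand by 10921 bases.

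Activators cap the core in place of the regulatory particle. Psme1 and Psme2 encode the subunits of the interferon-induced cap PA28. Psme1 had an FPKM of 439, 111 and 373 in labelled cKO 1, 2 and 3, against 1.45, 172 and 83.3 in WT 1, 2 and 3. Psme2 had 261, 383 and 163 in the labelled cKO, against 634, 272 and 2.96 in WT. The proteins form a joint ring, but the ratio of Psme2 to Psme1 FPKM was 0.594, 3.45 and 0.437 in the labelled cKO, against 437, 1.58 and 0.0356 in WT, furthest apart in WT 1 and WT 3. Psme2b is a single-exon copy of Psme2 on chromosome 11 (48945354 to 48946190 on the minus strand). Its GENCODE transcript is 99.4% identical to that of Psme2 over 794 bases, and the whole gene lies inside Gm12185, so its reads cannot be told apart from theirs with certainty. It had 431, 209 and 220.3 in the labelled cKO, against 32.3, 149 and 21.5 in WT, with no overlap between the genotypes. Added together, Psme2 and Psme2b had 692, 592 and 383, against 667, 420.5 and 24.5 in WT, and on that sum the genotypes overlapped.

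Psme4 encodes PA200, a large nuclear activator linked to histone breakdown. Psme4 (ENSMUSG00000040850, chromosome 11, 30771726 to 30880361 on the plus strand) had an FPKM of 55.1, 28.8 and 7.90 in labelled cKO 1, 2 and 3, against 0.478, 3.87 and 1.25 in WT 1, 2 and 3. All labelled cKO values exceeded all WT values, with means of 30.6 ± 23.7 in the labelled cKO and 1.86 ± 1.78 in WT (SD, n = 3 each). Psme3, the nuclear relative of PA28, passed 10 in 1 library, with 0.943, 46.4 and 0.358 in the labelled cKO, against 2.46, 0.275 and 6.90 in WT. Psmc3ip had 0, 0.0528 and 88.8, against 0.389, 127 and 0 in WT, above 10 in 1 library of each genotype.

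Genes were tested if they reached an FPKM of 1 in at least 3 of the 6 libraries, which kept 4173 genes and 38 of the 41 members; Psma8, Psmd11 and Psmc3ip did not pass. By edgeR's quasi-likelihood test none of the 38 members had an adjusted p under 0.05, and neither had any other gene (0 of 4173, 0%). At an unadjusted p under 0.05, 1 member was higher in the labelled cKO, where 142 genes were (3.4%), and 0 members were lower, where 145 genes were (3.47%). limma on log2(FPKM + 1) called 0 members and 0 genes (0%); 199 genes, with Psmc6 as the 1 member, had an unadjusted p under 0.05. DESeq2 called 2 members and 298 of 4173 genes (7.14%). It gave no adjusted p to 752 of these genes, 3 of them members. With no filter on low values edgeR called 163 of 19978 genes (0.816%) and 0 members. Log2 fold changes were positive for 27 of 38 members (71.1%), and for 67.9% of all genes tested. Their median was 1.03, beside 1.10 over all genes. Median-of-ratios scaling brought that median of all genes down to 0.52 and the members' to 0.50, with 23 of 38 positive, and the members lay close to all genes under both scalings. The median also rested on single libraries: it was -0.14 without labelled cKO 2 and 3.62 without WT 2, beside 0.67 and 2.93 over all genes. By role, log2 fold changes were positive for 5 of 7 alpha, 5 of 7 beta, 5 of 9 base and 7 of 7 lid subunit genes, 1 of 3 base assembly factors and 4 of 5 activators. With median-of-ratios scaling the counts were 4, 3, 4, 7, 1 and 4 in the same order. With WT 2 as the single WT library, 2 of the 7 lid genes were positive and all 5 activators were.

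Full statistics are given for the member with the smallest p of each role, for Psme2b, whose groups did not overlap, and for Psmc1, the member with the most negative fold change. Psmd10 was the single member at an unadjusted p under 0.05. Its log2 fold change was 6.67, SE 3.08 (edgeR, adjusted p = 0.692), and without labelled cKO 3 that value turned to -1.06. Psmd7 had 5.55, SE 2.84 (edgeR, adjusted p = 0.692), and Psmc6 had 4.87, SE 2.69 (adjusted p = 0.706). For Psme4 the estimate was 4.54, SE 2.73 (edgeR, adjusted p = 0.728), and for Psme2b 2.52, SE 2.49 (adjusted p = 0.754). In DESeq2, Psme4 and Psmd7 were the 2 members past the threshold (adjusted p of 0.0258 and 0.0407). Psma2, Psmc6 and Psmd10 were given no p there, adjusted or unadjusted, so DESeq2 could not call them. Psmb4 had 2.44, SE 2.41 (edgeR, adjusted p = 0.754), Psma4 1.9, SE 2.23 (adjusted p = 0.775), and Psmc1 -2.57, SE 2.49 (adjusted p = 0.752). Single libraries moved these estimates widely. Without labelled cKO 1, the log2 fold change was 0.81 for Psmb4, 0.95 for Psme2b, 2.32 for Psme4, 2.85 for Psmc6, 3.37 for Psmd7 and -3.46 for Psmc1. Without WT 2 it was 5.81 for Psma4, 5.16 for Psmb4, 3.63 for Psme2b and -1.54 for Psmc1, and without labelled cKO 2 it was 1.14 for Psma4. Standard errors of 2 to 3 on the log2 scale mean that even large differences in either direction were not detectable by edgeR. The largest estimate among the members, 6.67 for Psmd10, did not pass. FPKM did not overlap between genotypes for 4 tested members, all higher in the labelled cKO (10.5%): Psmc6, Psmd7, Psme2b and Psme4. Over all genes tested it was 6.37% higher and 5.18% lower.

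**Figure D3:**
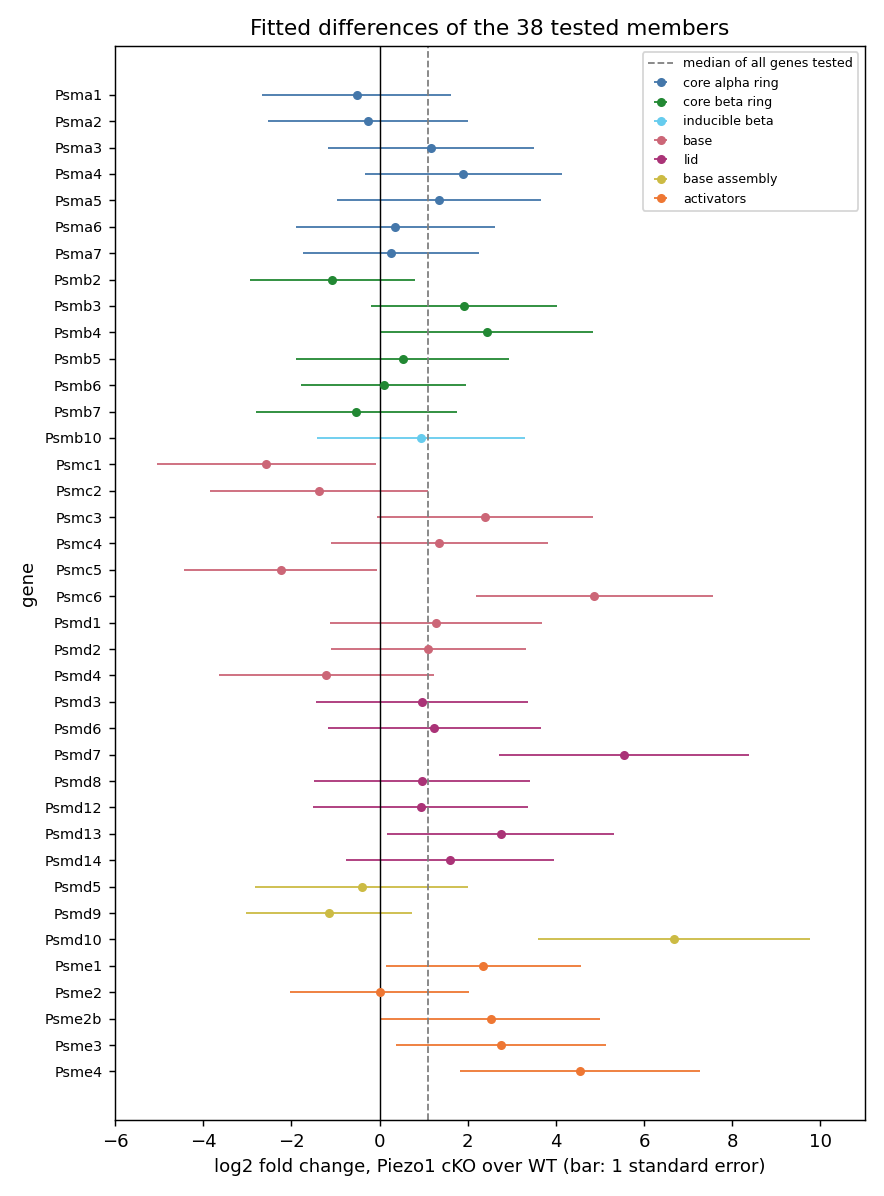
Log2 fold change, Piezo1 cKO over WT, of the 38 tested members in edgeR's fit, coloured by role, with 1 standard error as a bar; the dashed line is the median of all 4173 genes tested, 1.10. The points lie on both sides of that line, and none passed an adjusted p of 0.05.

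The order of the members varied within a genotype over a range that spanned the one between genotypes. Spearman's rho of the members' FPKM, taken over 41 genes that share their libraries and are not independent, ranged from 0.106 to 0.842 over the 6 pairs within a genotype and from 0.141 to 0.708 over the 9 pairs between genotypes. WT 1 and WT 3 were the most alike, at 0.842, although only 4 members reached an FPKM of 10 in both. Over the 29 members below 10 in both libraries rho was 0.919, so the likeness extended to the low values. That was not particular to this pair. Labelled cKO 1 and labelled cKO 2, at 0.355 over all members, had 0.922 over the 8 members below 10 in both. Over the pairs this low-value rho ranged from 0.049 (labelled cKO 2 and WT 1, 10 members) to 1 (labelled cKO 2 and WT 2, 3 members). Labelled cKO 2 and WT 2, with 25 members at 10 or more in both, had a rho of 0.663, and labelled cKO 1 and labelled cKO 3 had the lowest, 0.106.

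Low levels stood on similar counts in 5 of the 6 libraries. Among members below an FPKM of 10, the median count was 72, 43.5 and 87 in labelled cKO 1, 2 and 3, against 95, 673 and 58 in WT 1, 2 and 3. Apart from WT 2, where only 7 members were that low, these medians lay within 2.18-fold, while total counts spanned 18.5-fold over the 6 libraries. In Psma3, for example, the low libraries had 163 counts in labelled cKO 2, against 77 in WT 1 and 60 in WT 3, which gave an FPKM of 0.520, 0.898 and 2.77. An FPKM of 1 stood on a median of 106, 223 and 212 counts per member in the labelled cKO, against 61.2, 203 and 15.5 in WT. The same FPKM thus meant the fewest counts in WT 3, whose 35 members at an FPKM of 1 or more included 2 with at least 1000 counts. Levels of 1 to 10 in WT 3 and WT 1 therefore stood on fewer counts than the same levels in the deeper libraries.

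**Figure D4:**
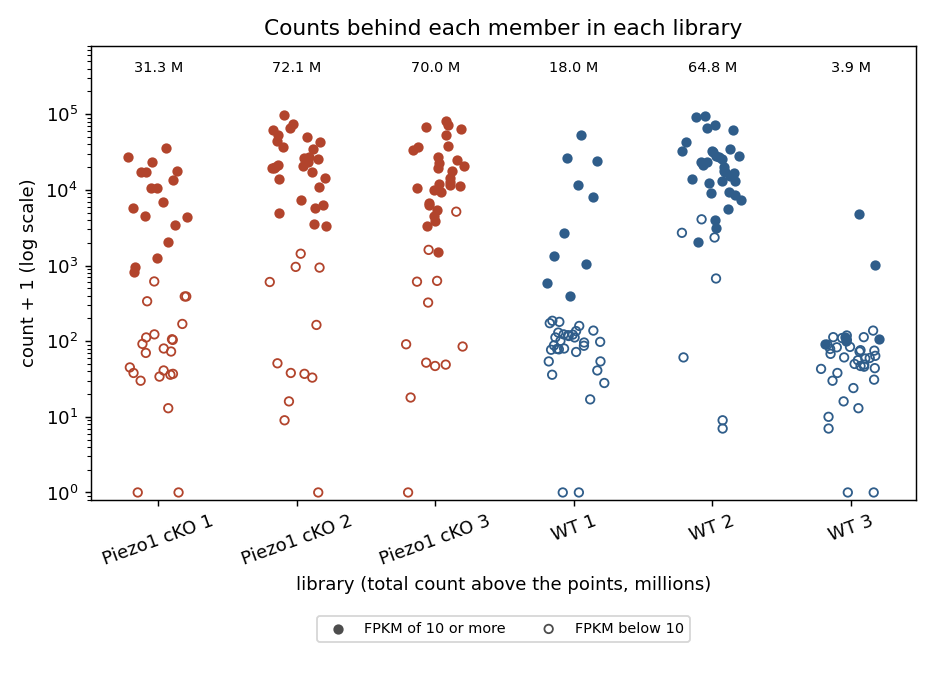
Counts plus 1 on a log scale for the 41 members in the 3 libraries labelled Piezo1 cKO (red, left) and the 3 WT libraries (blue, right), with filled points at an FPKM of 10 or more, open points below it, and the total count of each library above. In labelled cKO 1, WT 1 and WT 3 most open points lie between 10 and 200 counts, although the totals of these libraries differ.

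Partners of the proteasome showed the same unevenness. Of 14 genes for its assembly factors and associated proteins, 13 were in the table and 10 were tested; none passed in either direction (edgeR, adjusted p of 0.724 to 0.984), and their median log2 fold change was 1.65, beside 1.10 over all genes tested. It was 0.89 without labelled cKO 1 and 4.59 without WT 2. Psmg2, a chaperone of the alpha ring, had an FPKM of 488, 118 and 279 in labelled cKO 1, 2 and 3, against 1.05, 63.2 and 1.96 in WT 1, 2 and 3, with no overlap. Its partner Psmg1 had 393, 89.7 and 75.7, against 0.620, 83.0 and 1.85 in WT. The deubiquitinase gene Uchl5 had 0.213, 189 and 139, against 0.579, 32.1 and 1.19 in WT. Pomp, which helps the core to mature, had 0.572, 95.2 and 237, against 1.06, 202 and 3.28 in WT; it was named after its values were seen.

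Ubiquitin itself was among the more abundant transcripts. Of 15 genes that supply, charge or ferry ubiquitin, 12 were tested and none passed (edgeR, adjusted p of 0.734 to 0.992), with a median log2 fold change of 0.34, which turned negative with median-of-ratios scaling and was -1.20 without labelled cKO 1. Ubb, a polyubiquitin gene, had an FPKM of 706, 5258 and 3446 in labelled cKO 1, 2 and 3, against 45.2, 3254 and 215 in WT 1, 2 and 3. Uba1, the main ubiquitin-activating enzyme, had 98.4, 79.4 and 26.9, against 2.73, 18.7 and 5.99 in WT, with no overlap. Ubqln2, a shuttle factor, had 0.180, 0.0570 and 91.5, against 0.394, 38.8 and 1.43.

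Of 10 factors that act on the subunit genes, 9 were in the table and 5 were tested, and none passed (edgeR, adjusted p of 0.692 to 0.971; median log2 fold change -0.24, and 1.68 without WT 2). Bach1 is a repressor at antioxidant response elements. Its FPKM was 45.5, 7.14 and 4.93 in labelled cKO 1, 2 and 3, against 0.0975, 0.0296 and 0.663 in WT 1, 2 and 3. It passed the filter through the labelled cKO libraries alone, so its lack of overlap was fixed by the filter. Its unadjusted p under 0.05 (edgeR) comes from these same values, so it is not separate support for a difference. Of all genes tested, 6.37% were higher in the labelled cKO without overlap, and 3.4% were higher at an unadjusted p under 0.05. Nfe2l1 itself had 0.827, 2.65 and 1.42, against 2.33, 0.292 and 4.79 in WT. Nfe2l2 had 1.17, 19.5 and 0.153, against 1.64, 41.2 and 3.54, and the NF-Y subunit gene Nfyc 0.0808, 0.0321 and 4.69, against 8.05, 18.1 and 1.46. Of 9 interferon and antigen processing genes, 6 were in the table and 5 were tested, and none passed (edgeR, adjusted p of 0.692 to 0.870; median log2 fold change 1.15). That median was 0.50 without labelled cKO 2, 4.74 without WT 2 and -0.45 without WT 1 and WT 3. Irf1, an interferon-induced activator of immunoproteasome genes, had 0.199, 84.5 and 2.95 in the labelled cKO, against 0.582, 0.0720 and 2.28 in WT. Irf2 had 1.40, 18.5 and 13.2, against 0.226, 1.5 and 0.416 in WT. Both Irf1 and Irf2 were highest in labelled cKO 2, and the genotypes overlapped for each. Psmb10 also peaked there (268), but it was about as high in WT 2 (267), where Irf1 was lowest. Whether either factor acts on Psmb10 in these cells was not tested.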

How the data were processed

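RNA of 100 sorted HSCs per sample was measured by Smart-seq2 with paired-end sequencing, per the labels' protocols, which name no molecular identifiers, so counts include PCR copies. The authors deposited raw counts per gene and FPKM, which is scaled by them to length and depth. The submitters' processing notes name StringTie 2.1.6, HISAT2 2.2.1, cutadapt 1.9, edgeR and DESeq2, without roles, and the build GRCm39. The deposited coordinates nevertheless equal those of GENCODE M21 (GRCm38) for 17584 of 19953 matched genes (88.1%) and 34 of 41 members, so they are read as GRCm38. The sources used here do not say whether counting used strand, nor which annotation release. Of counts from 1 to 40, 40.2% to 48.8% were multiples of 4, for a reason that was not tested.

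Counts were tested with edgeR 4.0.16 (quasi-likelihood, TMM scaling, R 4.3.3) over genes with an FPKM of at least 1 in at least 3 libraries, with Benjamini-Hochberg adjustment over all of them. limma 3.58.1 on log2(FPKM + 1) and DESeq2 1.42.0 (local dispersion fit) were alternatives. The standard error (SE) is the absolute log2 fold change divided by the root of the F statistic. The common biological coefficient of variation was 1.49. Members, lists and roles were chosen with earlier results of these data known. FPKM is printed for the catalytic beta subunits and, per role, for the 3 members of highest mean and the 3 of smallest p; other list genes are the 3 of smallest p, of which 1 is not reported here, and Psma1, Psma2, Psmd4, Pomp, Nfe2l1 and Psmc3ip were added after their values were seen. Overlaps are those of deposited gene spans. Transcripts were compared with blastn 2.17.0+, and promoter sequences are those of RefSeq.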

Additional observations from a re-analysis of the deposited data

How the results depend on the processing

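The call of 0 genes by edgeR held with median-of-ratios scaling, limma, the replicate block and each library left out in turn (0 in every case). It became 163 with no filter, 2 at a mean FPKM of at least 5, 298 with DESeq2 and 1 without WT 1 and WT 3. That last fit has 1 WT library, which is assumed to vary like the 3 labelled cKO libraries, the sole source of its spread. Members called stayed at 0 except for 2 with DESeq2. The members' median log2 fold change was 0.85 with the replicate block. Without 1 library it ranged from -0.14 (without labelled cKO 2) to 3.62 (without WT 2), and without WT 1 and WT 3 it was -0.47. For 8 single members, 109 of 112 values under the alternatives kept their direction with no call, among them the DESeq2 values of Psmc6 and Psmd10, which have no adjusted p. The 8 were picked from these data for their p, lack of overlap or fold change. Because the alternatives refit the same libraries, a kept direction is not independent support. The size of the values moved with single libraries, as given above. DESeq2 called Psmd7 (4.35) and Psme4 (4.46), and Psmd10 ranged from -1.06 (without labelled cKO 3) to 7.26 (without labelled cKO 2) when 1 library was left out.

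The ubiquitin list's median turned to -0.0011 with median-of-ratios scaling and with DESeq2, -0.37 and -0.79 with limma at pseudocounts of 1 and 0.1, -0.40 with the replicate block, -0.32 without WT 1 and WT 3, and ranged from -1.20 to 1.65 without 1 library. The regulators' turned to 1.25 with no filter and ranged from -0.98 to 1.68 without 1 library. The interferon list's turned to -0.45 without WT 1 and WT 3 and ranged from 0.50 to 4.74 without 1 library, and that of the assembly list from 0.89 to 4.59. The cause of these changes was not tested. No pairing by replicate number was apparent. Deviations of same-numbered libraries correlated at 0.126, 0.151 and -0.155, and those of differently numbered libraries at -0.273 to 0.215. With 3 libraries per genotype these values cannot exclude pairing.

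Members at an FPKM of at least 5 numbered 11 in WT 1 and 19 in WT 3, and at a count of at least 10 they numbered 39 in labelled cKO 1. Cutoffs added after seeing the data gave 10 in WT 1 and 6 in WT 3 at an FPKM of 10, and 16, 8 and 2 in labelled cKO 1, WT 1 and WT 3 at 1000 counts. As a share of summed FPKM the members held 0.605%, 1.15% and 0.932% in the labelled cKO, against 0.803%, 1.29% and 0.166% in WT. Without the leading member the shares of counts were 0.544%, 1.05% and 0.900% in the labelled cKO, against 0.436%, 1.30% and 0.0885% in WT. WT 3, the shallowest library, limits low levels most, and the spread between libraries leaves even large differences undetected. In edgeR the largest log2 fold change of a member, 6.67 for Psmd10, did not pass.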
